A study of Mus musculus with 12 samples.

Results

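Mitochondrial fatty acid oxidation was followed through 10 genes, Cpt1a, Slc25a20, Cpt2, Acadvl, Acadl, Acadm, Hadha, Hadhb, Hadh and Acaa2, out of 22180 genes measured on 12 Affymetrix arrays. They were taken by name, each from the probe set annotated to that gene alone, and each of the 10 had 1 such probe set. The arrays compared freshly isolated adipose progenitor preparations (AP) with whole adipose tissue (AT), each from the perigonadal visceral depot (VAT) and the inguinal subcutaneous depot (SAT) of C57BL/6 mice. The 4 groups, AP from VAT, AP from SAT, AT from VAT and AT from SAT, had 3 biological replicates each. No group carried an engineered allele or a treatment in the labels, which give no age and do not say which animals gave which replicate, so the p-values speak only of how far these samples differ among themselves, and 3 arrays a group limit the precision. AP were what beads left behind after enzymatic digestion of fat from several mice, once lineage-positive blood cells and cells with CD31, a surface protein of endothelium, had been taken out. AP are therefore defined by removal, not by a marker of their own, and AT holds adipocytes together with every other cell of the depot. Values are log2 intensities, so a difference of 1 is a doubling, and a value of one probe set cannot be set against that of another. SD is the spread of 3 replicates and SE the standard error of limma's fit. Calls were made at an adjusted p under 0.05, with the adjustment over all 22180 genes. A level under 4.09, below which 40% of all deposited values lay, is described as near background.

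Long-chain fatty acids enter mitochondria as carnitine esters. Carnitine palmitoyltransferase 1 (CPT1A in most tissues) makes the ester on the outer membrane, the carrier SLC25A20 moves it across the inner membrane, and carnitine palmitoyltransferase 2 turns it back into acyl-CoA. The acyl-CoA then goes round the beta-oxidation spiral of dehydrogenation, hydration, a further dehydrogenation and thiolysis, which releases acetyl-CoA for the citrate cycle. In white adipocytes storage and release of fat dominate, while brown and beige adipocytes burn fatty acids to make heat.

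The labels were checked against marker genes. Progenitor markers were higher in AP over both depots for 9 of 9 measured genes, such as the growth factor receptors Pdgfra (log2 difference 2.31) and Pdgfrb (3.16) and the surface protein Cd34 (1.47). Adipocyte markers were lower in AP for 16 of 16, such as the hormones Adipoq (-5.42), Lep (-5.72) and Retn (-6.10), with no group near background for any of them. In AP the summed adipocyte signal on the linear scale was 3966 to 4578 in VAT and 4393 to 4812 in SAT, against 45938 to 46949 and 42467 to 43696 in AT. Macrophage markers, such as Adgre1, Cd68 and Csf1r, were lower in AP for 9 of 9, with sums of 315 to 352 in VAT and 306 to 393 in SAT, against 3966 to 4272 and 3654 to 5902 in AT. Endothelial markers were lower for 8 of 9 and higher for 1, with sums of 528 to 653 in VAT and 715 to 795 in SAT, against 2453 to 2875 and 2651 to 3492 in AT. Markers of pericytes and smooth muscle were higher for 8 of 8, with sums of 8602 to 9554 in VAT and 6875 to 7149 in SAT, against 1636 to 2289 and 1747 to 1951 in AT. Immediate early and heat shock genes, which enzymatic digestion can induce, were higher for 13 of 13 with a median of 5.20, and their sums were 27188 to 29764 in VAT and 30233 to 32959 in SAT, against 1313 to 1407 and 1066 to 1574 in AT. Arrays of 1 group correlated at 0.980 to 0.989 across all 41345 probe sets, and no pair was identical.

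The starts of the genes differ in their letters, and 3 promoters are shown, that of Hadhb for the bases it shares with Hadha, and those of Acadm and Cpt1a for the members with the largest fall and the only rise described further on. Each window runs from 250 bases before to 50 bases after the annotated start, 5′ to 3′ on the strand of the gene, from the RefSeq annotation of build GRCm38.p6. Hadha and Hadhb, which encode both subunits of the mitochondrial trifunctional protein, start 272 bases apart on opposite strands of chromosome 5, so that their windows share 228 bases. The Hadhb window (chr5:30155003-30155302, plus strand) has the shared bases in capitals. Acadm (chr3:153944594-153944893, minus strand) had the largest difference between AP and AT, and Cpt1a (chr19:3323051-3323350, plus strand) was the member that ran the other way. In these windows, capitals mark matches on either strand to AGGTCA, the unit bound by nuclear receptors such as the PPARs, to GGGCGG, the GC box, and to CCAAT.
Hadhb: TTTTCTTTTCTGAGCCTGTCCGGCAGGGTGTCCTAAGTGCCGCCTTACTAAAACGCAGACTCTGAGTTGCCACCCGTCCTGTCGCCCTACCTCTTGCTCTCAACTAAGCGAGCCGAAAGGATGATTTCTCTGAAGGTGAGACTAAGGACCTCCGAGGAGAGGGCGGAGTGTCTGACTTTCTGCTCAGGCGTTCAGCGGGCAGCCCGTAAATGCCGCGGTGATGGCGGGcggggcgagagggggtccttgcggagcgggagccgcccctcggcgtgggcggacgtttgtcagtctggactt
Acadm: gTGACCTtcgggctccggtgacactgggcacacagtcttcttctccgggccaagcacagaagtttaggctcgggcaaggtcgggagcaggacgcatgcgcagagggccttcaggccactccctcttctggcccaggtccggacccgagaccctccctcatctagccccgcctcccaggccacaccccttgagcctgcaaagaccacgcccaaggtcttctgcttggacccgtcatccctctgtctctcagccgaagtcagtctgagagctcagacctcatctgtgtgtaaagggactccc
Cpt1a: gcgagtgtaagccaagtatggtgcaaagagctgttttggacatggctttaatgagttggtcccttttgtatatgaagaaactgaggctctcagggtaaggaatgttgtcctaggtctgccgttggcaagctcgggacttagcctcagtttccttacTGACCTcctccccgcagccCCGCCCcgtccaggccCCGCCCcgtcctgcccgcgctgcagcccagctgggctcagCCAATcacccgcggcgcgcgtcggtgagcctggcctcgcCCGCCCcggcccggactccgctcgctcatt
The promoters of 9 members were searched on both strands, and that of Acaa2 was not analysed here. GGGCGG was in 7 of the 9 windows, against 35.7% of 32851 mouse promoter windows of the same length, and it was missing from Acadm and Acadvl. AGGTCA was in 3 of 9 (16.3% of all windows), those of Acadm, Acadvl and Cpt1a, where it lay at offsets of -249, -87 and -94 bases from the start. The direct repeat of it with a single base between, known as DR1, contains it and was in 0 of 9 (0.0396% of all). CGGAAG, the core bound by ETS factors, was in Cpt2 and Slc25a20 (2 of 9, against 16.9%), CCAAT in Hadh and Cpt1a (2 of 9, against 37.4%), and TGANTCA, the AP-1 site, in Acadvl (1 of 9, against 7.81%). The TATA box TATAAA (13.6% of all) and the palindromic NRF1 motif (0.971%) were in 0 of 9.

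Between AP and AT, most of the pathway was lower in AP. In VAT, 9 of the 10 members were called (32.6% of all genes were), 8 as lower (16.8%) and 1 as higher (15.8%). In SAT, 10 were called (32.4% of all genes), 9 as lower (16.3%) and 1 as higher (16.1%). The median log2 difference of the members was -1.09 in VAT and -1.56 in SAT, where that of all genes was 0.03 in each. AP and AT did not overlap for 9 of 10 members in VAT (40.9% of all genes) and for 10 of 10 in SAT (44.6%). Both contrasts share no arrays. In bulk samples such as these, fewer cells of a type and less RNA per cell cannot be told apart, and the part of adipocyte content or of digestion in these differences was not tested.

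**Figure D1:**
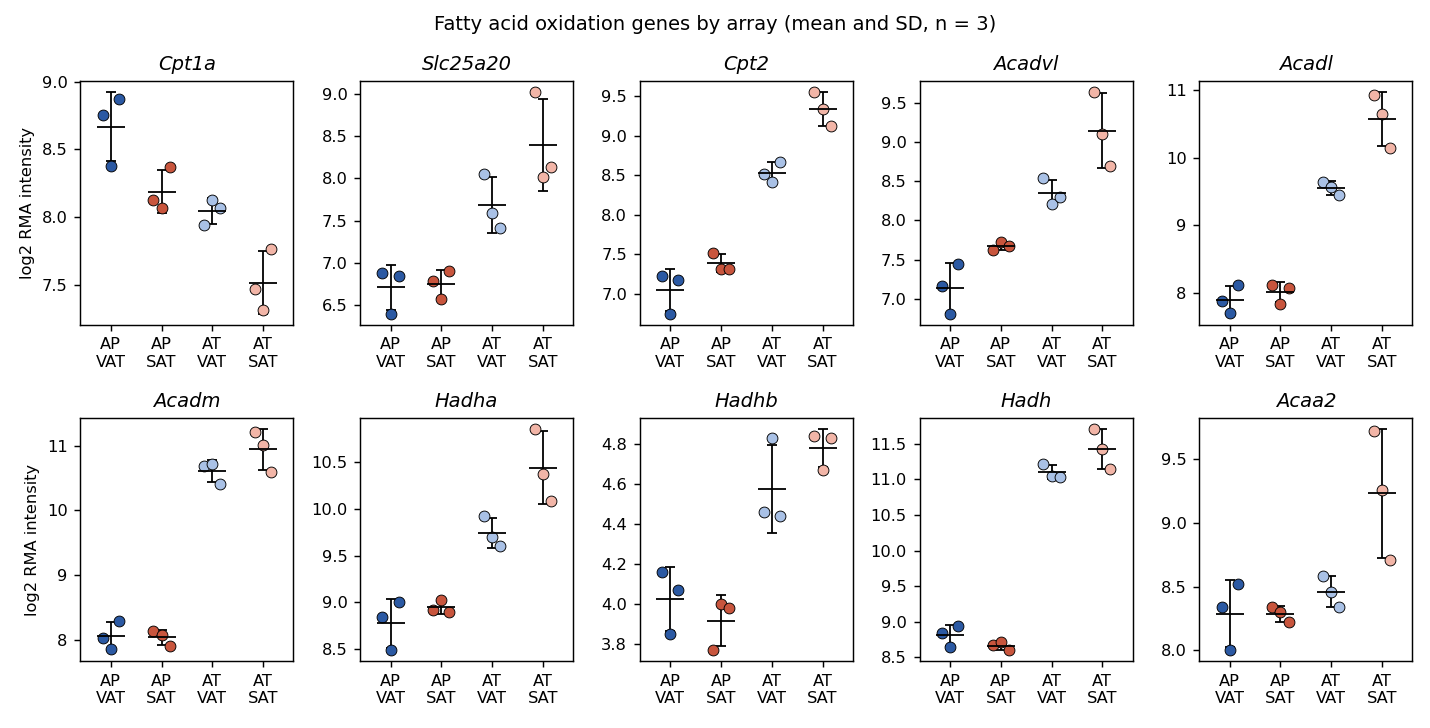
Log2 RMA intensity (vertical axes, a scale for each gene) of the 10 fatty acid oxidation genes on every array, by group (horizontal axes: AP from VAT, AP from SAT, AT from VAT, AT from SAT). Points are arrays, horizontal bars means and vertical bars SD (n = 3). AP lie below AT in both depots for 8 genes, overlap with AT in VAT for Acaa2, and lie above AT of the same depot for Cpt1a.

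Cpt1a, the enzyme that commits fatty acids to the mitochondrion, was the only member that was higher in AP in either depot. In VAT its values were 8.75, 8.38 and 8.87 in AP, against 7.94, 8.13 and 8.07 in AT. In SAT they were 8.13, 8.07 and 8.37 in AP, against 7.47, 7.32 and 7.77 in AT. In each depot every AP array was above every AT array. The log2 difference was 0.62 in VAT (SE 0.145, adjusted p = 0.00347, limma) and 0.67 in SAT (SE 0.145, adjusted p = 0.00178), a 1.54-fold and a 1.59-fold rise. Cpt1b, another CPT1 gene, was not among the genes measured, so these values do not give the whole CPT1 step.

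The remaining parts of the carnitine shuttle ran the opposite way. Slc25a20, the carnitine-acylcarnitine carrier of the inner membrane, had 6.88, 6.40 and 6.85 in AP from VAT, against 8.05, 7.59 and 7.41 in AT from VAT. In SAT it had 6.79, 6.57 and 6.90 in AP, against 9.02, 8.02 and 8.14 in AT. No AP array reached an AT array, and 1 AT array from SAT stood well above the other 2. The log2 difference was -0.97 in VAT (SE 0.23, adjusted p = 0.00378) and -1.64 in SAT (SE 0.23, adjusted p = 3.65e-05). With every array scaled to housekeeping genes the VAT value was -0.40 (adjusted p = 0.0823) and was not called. Cpt2, which frees the acyl group in the matrix, had 7.23, 6.75 and 7.18 in AP from VAT, against 8.52, 8.41 and 8.67 in AT from VAT. The SAT values were 7.52, 7.32 and 7.32 in AP, against 9.55, 9.34 and 9.12 in AT. The groups were well apart in both depots. The difference was -1.48 in VAT (SE 0.143, adjusted p = 8.62e-07) and -1.95 in SAT (SE 0.143, adjusted p = 4.03e-08).

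The acyl-CoA dehydrogenases of very long, long and medium chains, which carry out the first oxidation of the spiral, were all lower in AP. Acadvl had 7.16, 6.81 and 7.44 in AP from VAT, against 8.54, 8.21 and 8.30 in AT from VAT. For SAT the arrays gave 7.62, 7.73 and 7.67 in AP, against 9.64, 9.11 and 8.69 in AT. AP and AT did not overlap, and AT from SAT had a wide spread (SD 0.476) beside that of AP from SAT (SD 0.0551). The difference was -1.21 in VAT (SE 0.199, adjusted p = 0.000181) and -1.47 in SAT (SE 0.199, adjusted p = 2.48e-05). Acadl had 7.88, 7.70 and 8.11 in AP from VAT, against 9.64, 9.57 and 9.44 in AT from VAT. In SAT the values were 8.12, 7.84 and 8.07 in AP, against 10.93, 10.64 and 10.14 in AT. The AP groups were alike, while the AT arrays stood higher in SAT than in VAT. The difference was -1.65 in VAT (SE 0.168, adjusted p = 1.51e-06) and -2.56 in SAT (SE 0.168, adjusted p = 1.29e-08).

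Acadm, the medium-chain enzyme, had 8.02, 7.85 and 8.28 in AP from VAT, against 10.69, 10.72 and 10.41 in AT from VAT. The arrays from SAT had 8.13, 8.07 and 7.90 in AP, against 11.22, 11.02 and 10.60 in AT. Every AP array was over 2 log2 units below every AT array of its depot. The difference was -2.56 in VAT (SE 0.156, adjusted p = 6.11e-09, 5.88-fold lower) and -2.91 in SAT (SE 0.156, adjusted p = 1.28e-09, 7.53-fold lower).

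The trifunctional protein on the inner membrane takes long chains through the remaining steps. Hadha, its subunit with hydratase and hydroxyacyl-CoA dehydrogenase activity, had 8.85, 8.49 and 9.0 in AP from VAT, against 9.92, 9.70 and 9.60 in AT from VAT. SAT arrays gave 8.92, 9.03 and 8.90 in AP, against 10.85, 10.37 and 10.08 in AT. AP were below AT on every array. The difference was -0.96 in VAT (SE 0.173, adjusted p = 0.000427) and -1.48 in SAT (SE 0.173, adjusted p = 5.59e-06). In VAT it was -0.38 (adjusted p = 0.0603) and not called with housekeeping scaling. Hadhb, the thiolase subunit, had 4.16, 3.85 and 4.07 in AP from VAT, against 4.46, 4.83 and 4.44 in AT from VAT. In SAT it had 3.77, 4.0 and 3.98 in AP, against 4.84, 4.67 and 4.83 in AT. The groups did not overlap, but both AP means, 4.03 in VAT and 3.92 in SAT, were near background, so that its differences of -0.55 in VAT (SE 0.127, adjusted p = 0.00323) and -0.86 in SAT (SE 0.127, adjusted p = 5.87e-05) are fitted values only. How well this probe set follows the Hadhb transcript was not tested.

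Hadh and Acaa2 serve the shorter chains in the matrix. Hadh, the hydroxyacyl-CoA dehydrogenase, had 8.85, 8.65 and 8.94 in AP from VAT, against 11.22, 11.05 and 11.04 in AT from VAT. The SAT values were 8.68, 8.71 and 8.60 in AP, against 11.71, 11.43 and 11.15 in AT. Like Acadm, it set AP apart from AT by over 2 log2 units on every array. The difference was -2.29 in VAT (SE 0.132, adjusted p = 3.17e-09, 4.89-fold lower) and -2.77 in SAT (SE 0.132, adjusted p = 3.63e-10, 6.81-fold lower).

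Acaa2, the thiolase that splits off acetyl-CoA, had 8.34, 8.0 and 8.52 in AP from VAT, against 8.58, 8.46 and 8.34 in AT from VAT. In SAT the values were 8.34, 8.30 and 8.22 in AP, against 9.72, 9.26 and 8.71 in AT. AP and AT overlapped in VAT and were apart in SAT. The difference was -0.17 in VAT (95% interval -0.59 to 0.24, adjusted p = 0.548) and -0.94 in SAT (SE 0.195, adjusted p = 0.00125). For the housekeeping scaling, every array was shifted to the same median of 11 genes. The median of all genes then moved to 0.61 in VAT and 0.40 in SAT. Higher genes made up 93.4% of calls in VAT and 87.7% in SAT, against 48.4% and 49.7% without the shift. The housekeeping genes themselves were not level afterwards. In VAT 8 of the 11 were higher in AP and 2 lower (median 0.65), against 2 and 3 before (0.07). In SAT 7 were higher and 2 lower (0.57), against 4 and 3 before (0.2). Under this scaling, Hadhb (0.03) and Acaa2 (0.40) lay above 0 in VAT but below the median of all genes. There 5 members were lower, all but these 2, Slc25a20, Hadha and Cpt1a.

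**Figure D2:**
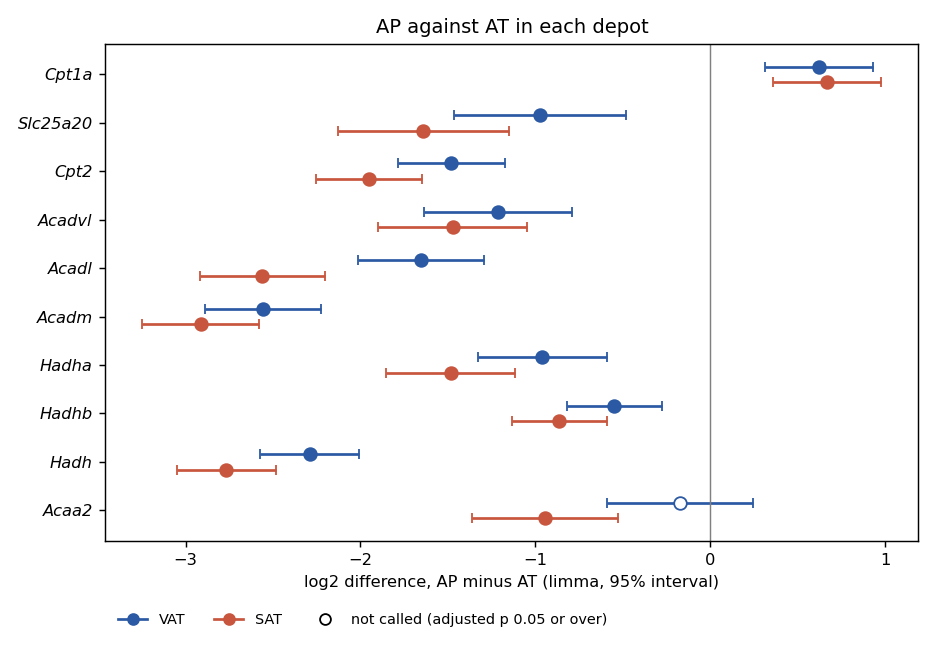
Log2 difference, AP minus AT (horizontal axis), of each member in VAT (blue) and SAT (red), with 95% intervals from limma and open points for differences that were not called. Of the members, Cpt1a lies to the right of 0 in both depots (0.62 and 0.67), Acadm reaches farthest to the left (-2.56 and -2.91), and Acaa2 in VAT is open (-0.17). With the arrays scaled to housekeeping genes, Hadhb and Acaa2 in VAT lie above 0.

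The depots differed in whole tissue, where 5 of 10 members were lower in VAT than in SAT (1.75% of all genes were) and 0 were higher (2.80%). The median of the members was -0.70 and that of all genes 0.00. From the values above, Acadl had the largest difference, -1.02 (SE 0.168, adjusted p = 0.00179), and its AT arrays did not overlap between depots. Cpt2 followed with -0.80 (SE 0.143, adjusted p = 0.00327), Acadvl with -0.80 (SE 0.199, adjusted p = 0.0310), Acaa2 with -0.77 (SE 0.195, adjusted p = 0.0341) and Hadha with -0.69 (SE 0.173, adjusted p = 0.0310). Depots did not overlap in AT for 6 of 10 members (18.1% of all genes), these 5 and Cpt1a. Cpt1a had 0.53 (95% interval 0.22 to 0.84, adjusted p = 0.0525). Slc25a20 had -0.71 (-1.20 to -0.22, adjusted p = 0.109), Acadm -0.34 (-0.67 to -0.01, adjusted p = 0.302), Hadh -0.33 (-0.61 to -0.04, adjusted p = 0.227) and Hadhb -0.20 (-0.47 to 0.07, adjusted p = 0.493), and none of these was called. Cpt1a was called in AT with a trend and robust fit (adjusted p = 0.0362) and with dim genes left out (adjusted p = 0.0417). It was also called after quantile normalization (0.51, adjusted p = 0.0348), but not with housekeeping scaling. Of the 12 fits that each lacked an array, 3 called it, and limma's adjusted p ran from 0.0197 to 0.182 over the 12. These 3 lacked AP replicate 2 (adjusted p = 0.0327) or 3 (adjusted p = 0.0473) from VAT, or AT replicate 3 from SAT (0.65, adjusted p = 0.0197). Slc25a20 was called with housekeeping scaling (-0.81, adjusted p = 0.0239), which made 6 members lower. Fitted to the AT arrays alone, Acadvl (adjusted p = 0.0975, limma), Hadha (adjusted p = 0.0982) and Acaa2 (adjusted p = 0.119) were not called. Acadl and Cpt2 stayed called there.

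The AT arrays from SAT were spread out, and the spread ran through the pathway. Replicate 1 was the highest of the 3 for 9 of 10 members, all but Cpt1a, where it was the highest for 31.8% of all genes. Without it, 2 members were lower in VAT, Acadl (-0.84, adjusted p = 0.00924) and Cpt2 (-0.70, adjusted p = 0.0219), while Acadvl (-0.55, adjusted p = 0.140), Hadha (-0.49, adjusted p = 0.145) and Acaa2 (-0.53, adjusted p = 0.153) were not called. Leaving out replicate 2 of AT from SAT, or replicate 2 or 3 of AT from VAT, also left 2 members called lower. Acaa2 was also not called without replicate 1 of AT from VAT (-0.83, adjusted p = 0.0641).

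Markers of brown adipocytes moved with the same arrays. Of 8 measured, 5 were lower in VAT than in SAT in AT, 0 were higher, and the median was -1.87. Ucp1, the uncoupling protein that makes heat, had 5.69, 4.17 and 4.32 in AT from VAT, against 10.76, 8.62 and 4.55 in AT from SAT, a difference of -3.25 that was not called (adjusted p = 0.0818). Cox8b, a cytochrome oxidase subunit of brown fat and muscle, had 7.01, 6.78 and 6.37 in AT from VAT, against 10.30, 9.83 and 8.80 in AT from SAT, and fell by 2.92 on the log2 scale (adjusted p = 2.38e-05). Elovl3, a fatty acid elongase, had 3.78, 4.10 and 3.19 in AT from VAT, against 7.61, 4.88 and 4.06 in AT from SAT (-1.83, adjusted p = 0.104). For each of these 3 genes the first replicate from SAT was the highest of the 6 AT arrays, and the third of SAT was the lowest of its group. The summed signal of the 8 markers was 282 to 395 in AT from VAT and 771 to 4192 in AT from SAT, with 3 of 8 group means near background in VAT and 0 in SAT. In AP it was 208 to 221 in VAT and 243 to 264 in SAT. Other lists also varied among AT replicates 1, 2 and 3 from SAT. Progenitor markers summed to 10526, 9863 and 16529 there, macrophage markers to 5006, 3654 and 5902, and citrate cycle genes to 18420, 15526 and 12912. The sum of adipocyte markers varied less, with 43364, 43696 and 42467. Single genes of that list had VAT minus SAT differences of -4.53 to 1.05 in AT, which the sum does not show. Mesothelial markers, which belong to the lining of visceral fat, were higher in VAT for 9 of 9 in each preparation, with sums of 3776 to 5294 in AP from VAT against 365 to 463 in AP from SAT, and of 2613 to 3225 in AT from VAT against 317 to 387 in AT from SAT. The part of any of these marker sets in the depot differences was not tested. One of the 8 brown markers, Ppara, is also a regulator of the pathway.

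**Figure D3:**
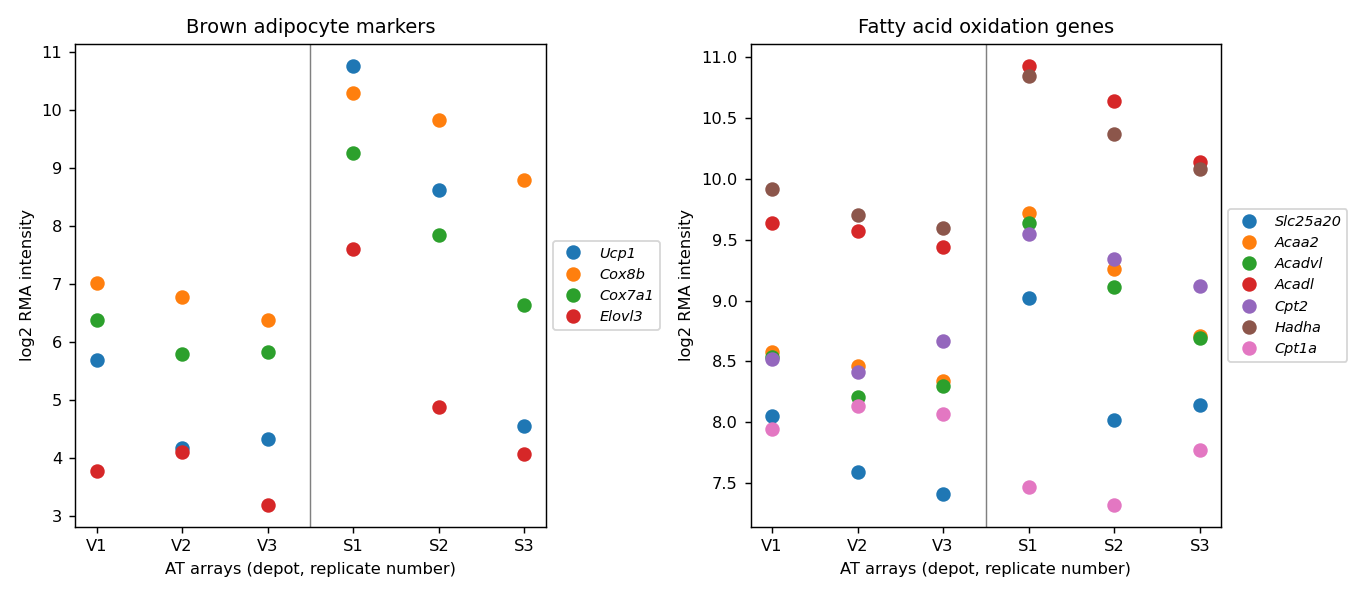
Log2 RMA intensity (vertical axes) on the 6 AT arrays (horizontal axes, VAT replicates 1 to 3 left of SAT replicates 1 to 3), for 4 brown adipocyte markers (left) and 7 of the members (right). SAT replicate 1 is the highest array for the 4 markers (Ucp1 at 10.76) and for 6 of the 7 members, and Cpt1a is at 7.47 there.

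In AP the members gave counts near those of all genes. Of the 10 members, 0 were called (5.64% of all genes were, 3.03% as higher and 2.6% as lower), 3 had an unadjusted p under 0.05, and the median was -0.02. The depots did not overlap for 3 members (20.4% of all genes), Cpt1a, Acadvl and Cpt2. Cpt1a had a VAT minus SAT difference of 0.48 in AP (95% interval 0.17 to 0.79, adjusted p = 0.0745), which passed the threshold after quantile normalization (0.54, adjusted p = 0.0206) and after scaling to housekeeping genes (0.58, adjusted p = 0.0180). It also passed without AP replicate 2 from VAT (0.62, adjusted p = 0.0244) or AT replicate 3 from SAT (0.48, adjusted p = 0.0484). The other fits that each lacked an array did not call it, and limma's adjusted p reached 0.258 among them. Acadvl had -0.54 (-0.96 to -0.11, adjusted p = 0.166) and Cpt2 -0.33 (-0.64 to -0.03, adjusted p = 0.260). The other 7 members had differences of -0.17 for Hadha to 0.15 for Hadh, and Acaa2 had 0.00 with an interval of -0.42 to 0.42. Replicate 2 of AP from VAT was the lowest of its group for 10 of 10 members, where it was the lowest for 39.3% of all genes.

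**Figure D4:**
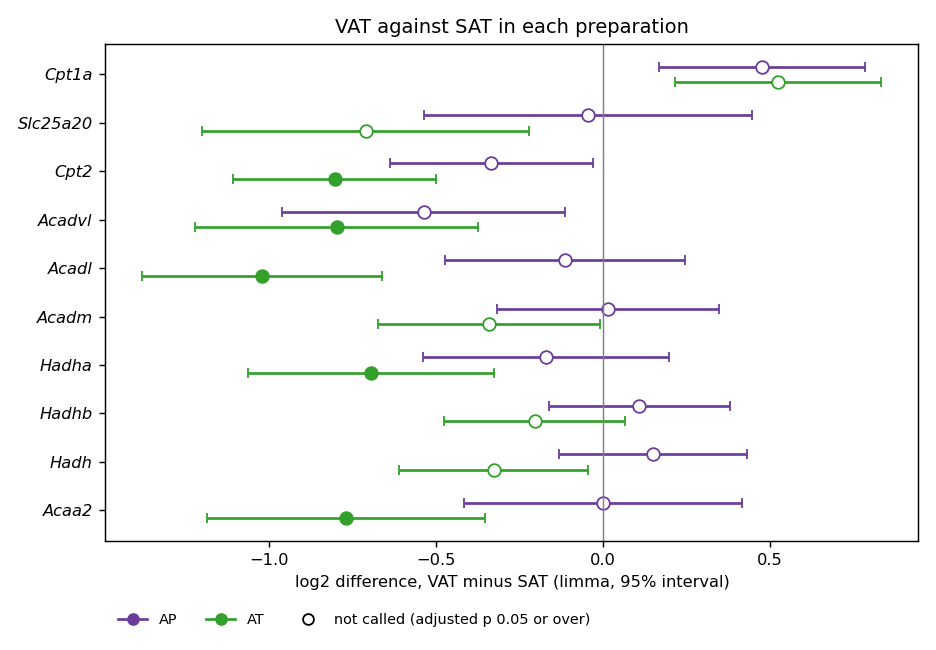
Log2 difference, VAT minus SAT (horizontal axis), of each member in AP (purple) and AT (green), with 95% intervals from limma and open points for differences that were not called. In AT 5 members are called and lie to the left of 0 (-0.69 to -1.02), and in AP every point is open. Fitted to the AT arrays alone, Acadvl, Hadha and Acaa2 are not called. With the arrays scaled to housekeeping genes, Slc25a20 in AP lies above 0 (0.06).

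The interaction subtracts the VAT minus SAT difference of AT from that of AP and tests whether they differ. It was called for 0 of 10 members (2.15% of all genes, 0.987% above 0 and 1.16% below), and 5 had an unadjusted p under 0.05, each above 0. The median was 0.47. Acadl had the largest value, 0.91 (95% interval 0.40 to 1.41, adjusted p = 0.0652), and it was called after quantile normalization (0.96, adjusted p = 0.0404), after scaling to housekeeping genes (1.11, adjusted p = 0.0259), with a trend and robust fit (adjusted p = 0.0450) and with dim genes left out (adjusted p = 0.0499). Acaa2 had 0.77 (0.18 to 1.36, adjusted p = 0.207). Once the third AT array from SAT was left out, both Acadl (1.12, adjusted p = 0.00578) and Acaa2 (1.03, adjusted p = 0.0180) were called. No other fit that lacked an array called Acadl (limma's adjusted p up to 0.163) or Acaa2 (up to 0.390). Cpt1a had -0.05 (-0.49 to 0.39, adjusted p = 0.954).

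The order of the 4 groups was the same at its upper end for 9 members, with AT from SAT above AT from VAT and both above AP. AT from VAT and AT from SAT overlapped for Slc25a20, Acadm, Hadh and Hadhb, and were apart for Cpt2, Acadvl, Acadl, Hadha and Acaa2. AP from VAT and AP from SAT overlapped for 7 of these 9 and were apart for Acadvl and Cpt2. For Acaa2, AT from VAT also overlapped the AP groups. Cpt1a ran AP from VAT, AP from SAT, AT from VAT and AT from SAT from high to low, and of its neighbours AP from SAT and AT from VAT overlapped.

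Over the 12 arrays the 9 members other than Cpt1a moved together, with Pearson's r of 0.70 to 1.00 and a median of 0.93 over 36 pairs. These correlations share the split between AP and AT. On deviations from group means r ran from 0.03 to 0.98 with a median of 0.76, and the lowest values were those of Hadhb, which had 0.25 with its partner subunit Hadha. Cpt1a had r of -0.87 to -0.65 with the other 9 over the arrays, and -0.17 to 0.58 on deviations from group means. The genes closest to the mean of the 10 members were Idh3a (r = 0.993), a subunit of the isocitrate dehydrogenase of the citrate cycle, the potassium channel Kcna4 (0.993), Etfdh (0.993), which passes electrons from the acyl-CoA dehydrogenases to the respiratory chain, glycogenin (Gyg, 0.993) and the catalytic subunit of protein kinase A (Prkaca, 0.992). Of single members, Acadm and Hadh were closest to each other (0.998), followed for Acadm by Sod1 (0.997) and Ptgr2 (0.997) and for Hadh by Eci1 (0.997) and Scp2 (0.997). Acadl was closest to Kcna4 (0.995), Hcar2 (0.993) and Etfdh (0.992), Cpt2 to Idh3a (0.992), Dlst (0.990) and Kcna4 (0.990), and Hadha to Acss1 (0.986), Acadvl (0.985) and Hcar2 (0.985). Acadvl was closest to Hadha (0.985), Pgk1 (0.980) and Dlst (0.979), and Slc25a20 to Tob1 (0.983), Hadha (0.974) and Ucp3 (0.971). Acaa2 was closest to Cox7a1 (0.957), one of the brown markers, Pkm (0.956) and Ank (0.945), Hadhb to Srp54c (0.976), Scarf1 (0.974) and AB124611 (0.973), and Cpt1a to Tbcel (0.983), Sorbs3 (0.972) and Agap1 (0.971).

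Genes around the 10 members were described from lists of the pathway, over both depots, where 42.5% of all genes were called, 20.5% as lower in AP and 22% as higher. The members themselves were lower for 9 and higher for 1, with a median of -1.33, and AP and AT did not overlap for 8 of them (23.5% of all genes). Under housekeeping scaling 8 were lower and 1 higher, the median was -0.85, and Acaa2 (-0.08, adjusted p = 0.596) was not called. This scaling moved the median of all genes over both depots to 0.51. The genes said below to change sign over both depots under it stayed under that median. Of 21 other genes of mitochondrial fatty acid oxidation, 19 were lower in AP, 1 was higher and the median was -1.36. With the arrays scaled to housekeeping genes 15 were lower, 2 were higher, and Acad12, Eci2 and Slc25a42 changed sign. Echs1, the short-chain enoyl-CoA hydratase, fell by 2.70 (SE 0.0974, adjusted p = 5.41e-12), Eci1, an enoyl-CoA isomerase, fell by 2.34 (SE 0.11), and in VAT Pcca, of propionyl-CoA carboxylase, fell by 2.29 (SE 0.137). Cpt1c, the CPT1 isoform known from neurons, was higher in AP in both depots, by 1.34 in VAT and 1.47 in SAT (SE 0.127 each). Cpt1c averaged 7.32 ± 0.05 in AP from VAT and 7.23 ± 0.12 in AP from SAT, against 5.98 ± 0.17 in AT from VAT and 5.76 ± 0.23 in AT from SAT (SD, n = 3 each). Between depots, Etfdh was lower in VAT in AT (-0.63, adjusted p = 0.0231) and Eci2, another isomerase, was higher in VAT in AP (0.36, adjusted p = 0.0401, and 0.46 with adjusted p = 0.0536 under housekeeping scaling), the only calls on this list in those comparisons.

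Malonyl-CoA blocks CPT1, and the genes that set its level were lower in AP for 6 of 9, with a median of -0.69 and 0 higher. With the arrays scaled to housekeeping genes 4 were lower and 3 higher, with no called gene changing sign. The acetyl-CoA carboxylases that make it had the largest falls, Acaca with -4.10 (SE 0.125) and Acacb with -3.08 (SE 0.161, adjusted p = 3.58e-10). Acaca averaged 6.54 ± 0.31 in AP from VAT and 6.95 ± 0.07 in AP from SAT, against 10.54 ± 0.35 in AT from VAT and 11.15 ± 0.20 in AT from SAT (SD, n = 3 each). Mlycd, whose enzyme breaks malonyl-CoA down, fell by 0.60 (-0.13 with limma's adjusted p = 0.380 under housekeeping scaling). Prkab2, a subunit of the AMP-activated kinase, was higher in AP in SAT (0.38, adjusted p = 0.0351) and had 0.04 in VAT (adjusted p = 0.839). Genes that make malonyl-CoA are counted here with genes that lower it, so the counts give no direction for malonyl-CoA itself. On this list 0 of 9 genes were called between depots in AP or in AT by limma, while 2 had an unadjusted p under 0.05 in AP and 3 in AT.

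Of 18 regulators of the pathway, 12 were lower in AP and 2 higher, with a median of -0.56, and with the arrays scaled to housekeeping genes 6 were lower, 6 higher, and Rxra, Gabpa and Sirt1 changed sign. Lpin1, a phosphatidate phosphatase that also acts as a coactivator, fell by 2.95 (SE 0.104) and Pparg, the nuclear receptor of adipocyte identity, fell by 2.17 (SE 0.117). Ppargc1a, the coactivator of mitochondrial genes, fell by 1.97 (SE 0.232, adjusted p = 3.82e-06). Ppara, the nuclear receptor of fatty acid oxidation, fell by 0.76 (SE 0.143, adjusted p = 0.000427), with -0.32 in VAT (adjusted p = 0.264) and -1.20 in SAT (adjusted p = 0.000221), and over both depots it was -0.28 (adjusted p = 0.0850) with housekeeping scaling. Esrra, an orphan receptor of the same programme, had 0.20 (SE 0.0799, adjusted p = 0.0624). Nrf1 (0.34, adjusted p = 0.00148) and Hnf4a (0.29, adjusted p = 0.0107) were higher in AP.

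Between depots in AT, Pdk4, a kinase that turns off pyruvate dehydrogenase, had 8.49, 8.45 and 7.96 in VAT, against 11.08, 9.76 and 9.32 in SAT. The depots did not overlap. Pdk4 was lower in VAT by limma (-1.75, adjusted p = 0.00522), as was Ppara (-0.80, adjusted p = 0.0331), while Ppard was higher (0.38, adjusted p = 0.0459). Ppard was not called after quantile normalization (adjusted p = 0.0800) or housekeeping scaling (adjusted p = 0.362). In AP Pparg was the regulator called, lower in VAT (-0.74, adjusted p = 0.0130), with -0.10 in AT (adjusted p = 0.847). With housekeeping scaling the value of Pparg in AP was -0.64 (adjusted p = 0.0659). Ppargc1a had -0.84 in AT (adjusted p = 0.204), where it had 6.02, 6.13 and 5.43 in VAT against 7.68, 6.64 and 5.79 in SAT.

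The citrate cycle, which takes up the acetyl-CoA of the spiral, was lower in AP for 17 of 17 genes measured in each depot, with a median of -1.24 over both. Under housekeeping scaling 14 were lower in VAT, where Idh2 changed sign (0.10, adjusted p = 0.514), and 16 in SAT and over both depots. Idh3a fell by 2.66 (SE 0.126) and Dld, a subunit shared by the 2-oxo acid dehydrogenases, fell by 2.37 (SE 0.103). In AT, 3 of the 17 were lower in VAT than in SAT, Idh3a (-0.87, adjusted p = 0.00885), Sucla2 (-0.84, adjusted p = 0.0120), a subunit of succinyl-CoA synthetase, and Dlst, of the oxoglutarate dehydrogenase (-0.47). Peroxisomal beta-oxidation, which shortens very long chains, was lower in AP for 12 of 15 genes with a median of -0.69, and with the arrays scaled to housekeeping genes 7 were lower, 3 higher, and Amacr changed sign. Abcd2, the peroxisomal transporter of very long-chain acyl-CoA, fell by 4.39 (SE 0.101) and Scp2, which holds a peroxisomal thiolase, fell by 2.87 (SE 0.0872). In AP Abcd2 was also lower in VAT than in SAT (-0.66, adjusted p = 0.00968).

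**Figure D5:**
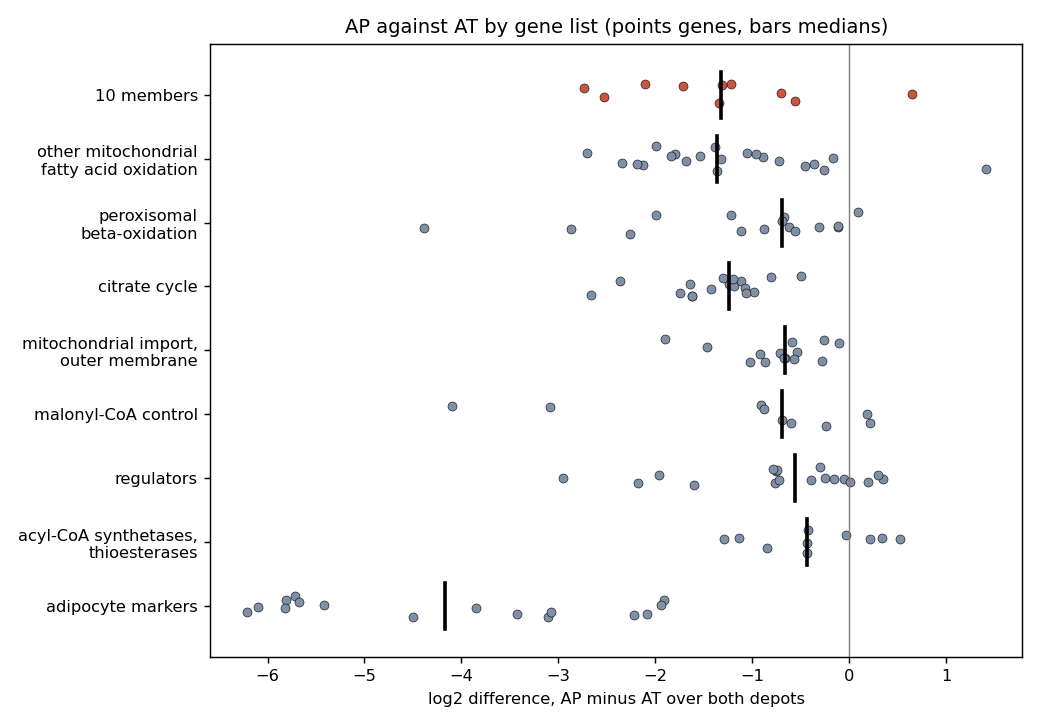
Log2 difference, AP minus AT over both depots (horizontal axis), for the 10 members (red) and 8 other gene lists (grey). Points are genes and black bars medians, with vertical scatter inside a row only to separate points. The medians are -1.33 for the members, -1.36 for other mitochondrial fatty acid oxidation, -1.24 for the citrate cycle and -4.17 for adipocyte markers. With the arrays scaled to housekeeping genes, the median of acyl-CoA synthetases and thioesterases lies above 0 (0.05) but below that of all genes (0.51).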

How the data were processed

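RNA of 12 samples was hybridised to Affymetrix arrays. The authors deposited 1 log2 intensity for each probe set and array, made by robust multi-array averaging (RMA) in Affymetrix Expression Console 1.3.0.187, per the submitters' processing notes. The base of the log was taken from that method and from the values, which run from 1.69 to 13.48. The level of summary and the genome build of the probe sets are not given in the sources used here. Array medians were 4.49 to 4.67.

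The platform annotation gave 1 gene to 23521 of 41345 probe sets, several to 1814 and none to 16010. Those with 1 gene were used, and of several for a gene the one with the highest mean over all arrays, which left 22180 genes. limma 3.58.1 in R 4.3.3 fitted 1 mean per group over the 12 arrays (8 residual and 6.84 prior degrees of freedom), with 2-sided moderated tests and Benjamini-Hochberg adjustment over all genes in each of 6 contrasts. The code was tested on simulated data. Likeness was Pearson's r over 12 arrays. Promoter windows came from RefSeq, and figures were drawn with matplotlib 3.10.9 in Python 3.11.15.

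The members and all gene lists were chosen with earlier results of these data known. Named were all members, from each pathway list and contrast the called genes that moved most (at most 2 each way), Ppara, Pparg, Ppargc1a and Esrra, up to 3 genes per marker list in list order, the 5 genes closest to the mean of the members and the 3 closest to each. Dlst between depots, Mlycd and the genes whose sign depends on scaling were chosen after their values were seen. Of 246 entries on 20 other lists, 225 were measured. Alternatives were a replicate block, trend and robust options, the compared groups alone, quantile normalization, housekeeping scaling, a filter on dim genes, the mean over probe sets, an added size demand (1 on the log2 scale), and 12 fits that each lacked an array.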

Additional observations from a re-analysis of the deposited data

Results flagged for a closer look

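Among the pathway lists, 5 genes had a depot difference (VAT minus SAT) in AP that differed from that in AT by limma's interaction test. None of the 10 members did, and 2.15% of all genes did. Of 18 regulators 1 was above 0 and 1 below, of 15 peroxisomal genes 1 and 1, and of 5 ketone body enzymes 1 was below. The other lists had 0 called, of 21 further genes of mitochondrial fatty acid oxidation, 10 synthetases and thioesterases, 9 malonyl-CoA genes, 17 citrate cycle genes and 14 import genes. Pdk4, the kinase that turns off pyruvate dehydrogenase, had an interaction of 2.38 (SE 0.47, adjusted p = 0.0154), from means of 7.88 in VAT and 7.26 in SAT in AP, and of 8.30 in VAT and 10.05 in SAT in AT. The SD of Pdk4 in AT from SAT was 0.916, where brown adipocyte markers also varied most. Scp2, which holds a peroxisomal thiolase, had 0.72 (SE 0.174, adjusted p = 0.0463), from means of 6.80 and 6.43 in AP and of 9.31 and 9.66 in AT, VAT before SAT. Abcd2, the peroxisomal acyl-CoA transporter, had -0.85 (SE 0.202, adjusted p = 0.0404), from means of 6.62 and 7.28 in AP and of 11.44 and 11.25 in AT. Aacs, which activates acetoacetate in the cytosol, had -1.03 (SE 0.149, adjusted p = 0.00191), from means of 6.40 and 6.95 in AP and of 9.50 and 9.02 in AT. Ppard, a nuclear receptor that fatty acids activate, had -0.58 (SE 0.142, adjusted p = 0.0468), from means of 7.26 and 7.46 in AP and of 7.60 and 7.22 in AT. On the regulator list 0 genes had a called interaction below 0 after quantile normalization or after scaling to housekeeping genes, so Ppard was not called under either, and on the peroxisomal list 0 did after scaling to housekeeping genes, so Abcd2 was not called there.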

How the results depend on the processing

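Each member's test was repeated under every alternative. The difference kept its sign and its side of the threshold in 192 of 200 values for AP against AT in VAT, 197 of 200 in SAT, 186 of 190 over both depots, 190 of 200 for VAT against SAT in AP, 171 of 200 in AT and 179 of 190 for the interaction. In many of these values only the call could change, not the sign. The block, the trend and robust options, the compared groups alone, the dim filter and the size demand all keep the difference itself. So does the mean over probe sets, since each member had 1, and so does leaving out an array of a group not compared. Scaling to housekeeping genes gave 5 members lower in VAT for AP against AT (reported 8), turned Hadhb (0.03) and Acaa2 (0.40), turned Slc25a20 to 0.057 for VAT against SAT in AP, and gave an interaction of 0.15 for Cpt1a. It also gave 18336, 14193 and 19228 called genes for AP against AT in VAT, in SAT and over both (7239, 7186 and 9430 as reported), and the share of higher among called genes was 91% over both (51.9% as reported), 68.8% for the depots in AP (53.8%), 38.1% in AT (61.5%) and 77.6% for the interaction (46%). Quantile normalization gave 0.028 for the interaction of Cpt1a (-0.05 as reported). With a log2 difference of at least 1 required, 0 members were higher in AP in VAT, in SAT and over both, 5 were lower in VAT, and 1 was lower between depots in AT. All called genes were then 1966, 2204 and 1986 for AP against AT, 370 and 251 for depots in AP and AT, and 221 for the interaction. With the AT arrays alone, 2 members and 601 genes were called between depots (5 and 1009 as reported). For depots, 1 member was higher in AP with a replicate block, quantile normalization or housekeeping scaling, and 1 was higher in AT with a replicate block, a trend and robust fit, quantile normalization or dim genes left out. That member was Cpt1a. For the interaction 1 was higher with a trend and robust fit, quantile normalization, housekeeping scaling or dim genes left out, namely Acadl. With the replicate block, Cpt1a had 0.48 in AP (adjusted p = 0.0389) and 0.53 in AT (adjusted p = 0.0267), and Slc25a20 had -0.71 in AT (adjusted p = 0.0339). Whether same-numbered arrays share animals is not given in the labels, and the numbers were not taken as pairs, since such arrays correlated at -0.28 to 0.16 on deviations from group means (3 of 18 pairs above 0.1), and 5 of 12 arrays matched best with their own number. Leaving out each array gave 0 to 1 members higher between depots in AP, 0 to 1 higher and 2 to 5 lower in AT, and 0 to 2 higher for the interaction, with 660 to 1026 genes called in AT and 264 to 626 for the interaction (476 as reported). The ranges that crossed 0 were -0.10 to 0.12 for Acadm, -0.12 to 0.14 for Acaa2 and -0.14 to 0.11 for Slc25a20 between depots in AP, and -0.175 to 0.093 for the interaction of Cpt1a. The cause was not tested. Leaving out single arrays kept all AP against AT calls of members in each depot. Signal near background limits Hadhb.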

Other observations

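Genes next to the pathway were less uniform between AP and AT over both depots. Fatty acyl-CoA synthetases and thioesterases activate fatty acids or release them again. Of 10 measured, 6 were lower in AP, 3 were higher and the median was -0.43. With the arrays scaled to housekeeping genes 3 were lower, 4 higher, and Acsl4, Acsl5 and Acot2 changed sign. Acsl1, Acsl3 and Acsm3 were also on this list but were not measured. Acsm5, a medium-chain synthetase, fell by 1.29 (SE 0.0892), with AP means near background (3.58 in VAT and 3.46 in SAT), and was higher in VAT than in SAT in AT (0.52, adjusted p = 0.0265, and 0.42 with adjusted p = 0.166 under housekeeping scaling). Acot13, a thioesterase, fell by 1.14 (SE 0.0942), while Acot1, a cytosolic thioesterase, rose by 0.52 (SE 0.126, adjusted p = 0.00305) and Acot9, a mitochondrial one, by 0.34 (SE 0.122, adjusted p = 0.0339). Of 5 ketone body enzymes, 3 were lower and 1 was higher. Aacs fell by 2.59 (SE 0.0744), Oxct1, which starts the use of ketone bodies, by 1.35 (SE 0.0823), and Bdh2, a dehydrogenase, rose by 1.24 (SE 0.108). In SAT Acat1, the acetoacetyl-CoA thiolase, fell by 1.26 (SE 0.104). Aacs was lower in VAT than in SAT in AP (-0.55, adjusted p = 0.00407) and higher in AT (0.48, adjusted p = 0.0146), and with housekeeping scaling neither was called (-0.45, adjusted p = 0.0867 in AP, and 0.38, adjusted p = 0.195 in AT).

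Of 14 genes of mitochondrial protein import and the outer membrane, 13 were lower in AP with a median of -0.67, and with the arrays scaled to housekeeping genes 5 were lower, 1 was higher, and Tomm22 and Phb2 changed sign. The matrix chaperones Hspd1 and Hspa9 had the largest falls, with -1.90 (SE 0.0941) for Hspd1 and -1.47 (SE 0.0793) for Hspa9. Vdac3, a channel of the outer membrane, was lower in VAT than in SAT both in AP (-0.42, adjusted p = 0.0109) and in AT (-0.36, adjusted p = 0.0347), and with housekeeping scaling neither was called (-0.32, adjusted p = 0.287 in AP, and -0.47, adjusted p = 0.0702 in AT).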
